A study of Mus musculus with 2 samples.

Results

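The platelet-derived growth factor (PDGF) family was followed through RNA sequencing of marrow mesenchymal stem/progenitor cells (MSPC) that do or do not carry an activating Ptpn11 allele. It is made up of the ligand genes Pdgfa, Pdgfb, Pdgfc and Pdgfd and the receptor genes Pdgfra and Pdgfrb, which were taken by gene symbol. All 6 were found among the 35275 Ensembl identifiers of the count table, and all 6 reached the minimum of 20 counts over both libraries that makes a gene measured here. One library came from Ptpn11E76K/+ MSPC and the other from Ptpn11+/+ MSPC. Both kinds of mice were C57BL/6 and both carried Nestin-Cre, a recombinase transgene under a promoter of the nestin gene, which is active in part of the marrow stroma and in other tissues. How old the mice were, their sex and how many were pooled per library is not stated in the labels. The cells were freshly sorted from bone marrow as CD140+ and Sca-1+ cells that lacked CD45, Ter-119 and CD31, and polyadenylated RNA was enriched. CD140 is the PDGF receptor protein itself, in an alpha form (CD140a, from Pdgfra) and a beta form (CD140b, from Pdgfrb), and the labels do not say which was stained.

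PDGF ligands are secreted dimers that draw pairs of receptor chains together, and the receptors are tyrosine kinases that phosphorylate each other and recruit signal proteins. The A and C chains signal mainly through the alpha receptor, the D chain mainly through the beta receptor, and the B chain through both. SHP2, the phosphatase encoded by Ptpn11, is one of the proteins that dock on activated PDGF receptors, and it passes the signal on towards RAS and ERK. In marrow, PDGF receptors mark mesenchymal progenitors and pericytes, for which PDGF is a growth and migration signal.

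The Ptpn11E76K/+ library held 18010963 counts and the Ptpn11+/+ library 22328659. With 1 library per genotype there is no spread between animals to test against, so no p-value is given and each difference is one between these 2 libraries. Levels are in CPM, the counts of a gene scaled to a TMM-adjusted library total of 1000000. Ratios are the Ptpn11E76K/+ level over the Ptpn11+/+ level, and a gene said to be x-fold lower has 1 over that ratio, with a 95% exact Clopper-Pearson interval that covers counting error only. A gene was called higher or lower when that whole interval lay beyond 2-fold. Ptpn11 had 5039 counts in the Ptpn11E76K/+ library and 5958 in the Ptpn11+/+ library, and gene counts do not separate the alleles, so they do not check the genotype. Of the sort genes, Ptprc (CD45) had 12 and 1 counts and Pecam1 (CD31) 2 and 5 in the Ptpn11E76K/+ and Ptpn11+/+ libraries. Ly6a (Sca-1) had 35.2 CPM in the Ptpn11E76K/+ library against 94.1 CPM in the Ptpn11+/+ library, and Nes had 620 against 224 CPM. Fewer cells of a type and less RNA per cell cannot be told apart in such bulk libraries.

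The ligand transcripts were made up differently in the libraries. Pdgfa was higher in the Ptpn11E76K/+ library, whereas Pdgfc and Pdgfd were lower there, and the receptor transcripts differed by less than 1.5-fold. Under the 2-fold rule, 1 of the 6 genes was called higher, 2 were called lower and 3 were not called. The same rule called 15.3% of the 13142 measured genes, 6.98% as higher and 8.29% as lower. The median log2 ratio was -0.45 over the 6 genes and 0.00285 over all measured genes.

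Pdgfa, which encodes the A chain, a ligand of the alpha receptor, had 861 counts in the Ptpn11E76K/+ library and 400 in the Ptpn11+/+ library. These are 49.5 CPM (95% Poisson interval 46.3 to 52.9) in the Ptpn11E76K/+ library and 17.3 CPM (15.6 to 19.1) in the Ptpn11+/+ library. The ratio was 2.86 (2.54 to 3.23), and Pdgfa was the only family member called higher. Its log2 ratio stood at percentile 95.1 of all measured genes. An antisense gene, 6330403L08Rik, overlaps Pdgfa in the annotation, and no source used here states whether the counting used strand. That gene had 217 counts in the Ptpn11E76K/+ library and 274 in the Ptpn11+/+ library, and its part in the Pdgfa value was not tested.

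Pdgfc encodes the C chain, another ligand of the alpha receptor, which is secreted with a CUB domain that proteases must remove. It had 593 counts in the Ptpn11E76K/+ library and 1741 in the Ptpn11+/+ library, or 34.1 CPM (31.4 to 37.0) against 75.3 CPM (71.8 to 78.9). Pdgfc was 2.21-fold lower (2.01 to 2.43), just inside the rule. With a 99% interval it was not called.

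Pdgfd encodes the D chain, the CUB-domain ligand of the beta receptor. It had 131 counts in the Ptpn11E76K/+ library and 534 in the Ptpn11+/+ library, or 7.53 CPM (6.30 to 8.94) against 23.1 CPM (21.2 to 25.1). Pdgfd was 3.06-fold lower (2.53 to 3.74), the largest fold of the 6 genes, though its interval overlaps that of Pdgfa (2.54 to 3.23). Its log2 ratio stood at percentile 6.80 of all measured genes.

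Pdgfb encodes the B chain, which in other tissues is made mainly by endothelial cells, megakaryocytes and macrophages. It was the scarcest member in both libraries, with 56 counts in the Ptpn11E76K/+ library and 114 in the Ptpn11+/+ library. These correspond to 3.22 CPM (2.43 to 4.18) against 4.93 CPM (4.07 to 5.92). The ratio of 0.653 (0.466 to 0.907) lay below 1, but its interval reached past 2-fold only in part and Pdgfb was not called.

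**Figure D1:**
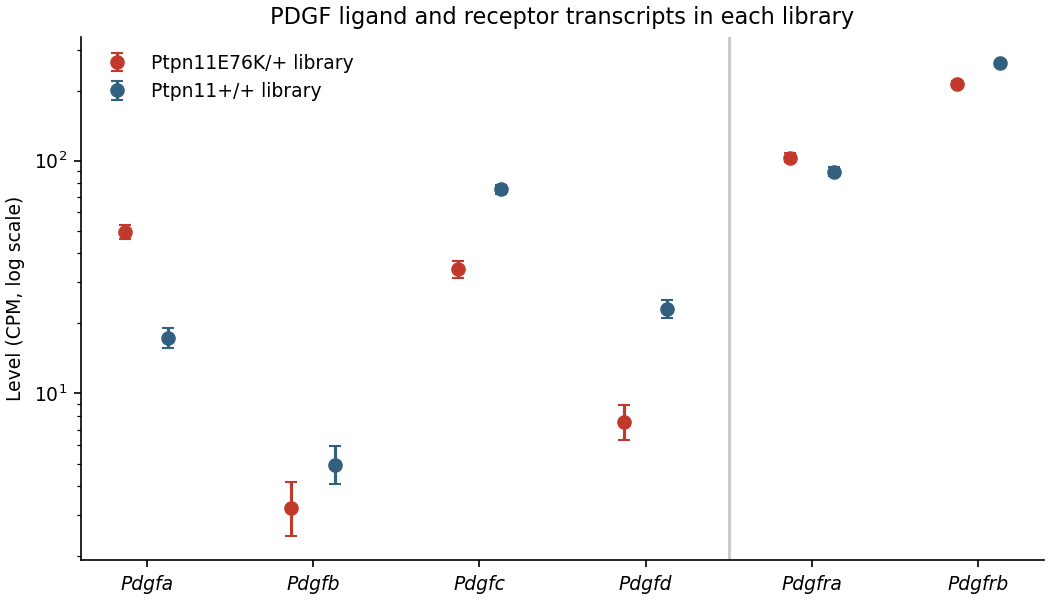
Level of each PDGF ligand and receptor transcript in CPM on a log axis, with the Ptpn11E76K/+ library left of the Ptpn11+/+ library; bars are 95% Poisson intervals, which cover counting error only. Pdgfa stands at 49.5 CPM in the Ptpn11E76K/+ library against 17.3 CPM in the Ptpn11+/+ library, while Pdgfc and Pdgfd are lower in the Ptpn11E76K/+ library.

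The start regions of the called ligand genes are shown because these genes moved in opposite directions. The runs come from RefSeq promoter windows on GRCm38.p6, which had an entry for 4 of the 6 genes. Pdgfa has windows at 2 start sites, and the upstream one is shown and described; the other has 1 GC box match and 66.4% G and C. Each run is written 5′ to 3′ on the strand of its gene and ends before the first base that GENCODE M21 annotates as an exon of that gene or at the RefSeq start site. The Pdgfa run lies at chr5:138995038-138995194 on the minus strand, the Pdgfc run at chr3:81036166-81036415 on the plus strand and the Pdgfd run at chr9:6168236-6168485 on the plus strand. Capitals mark a TATAAA match.
Pdgfa: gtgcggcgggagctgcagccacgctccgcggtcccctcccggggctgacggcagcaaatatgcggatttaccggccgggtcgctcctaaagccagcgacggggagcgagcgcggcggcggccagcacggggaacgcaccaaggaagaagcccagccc
Pdgfc: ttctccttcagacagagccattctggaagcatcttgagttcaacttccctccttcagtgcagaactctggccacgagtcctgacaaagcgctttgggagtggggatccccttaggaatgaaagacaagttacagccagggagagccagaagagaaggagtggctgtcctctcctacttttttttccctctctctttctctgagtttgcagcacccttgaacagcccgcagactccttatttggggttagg
Pdgfd: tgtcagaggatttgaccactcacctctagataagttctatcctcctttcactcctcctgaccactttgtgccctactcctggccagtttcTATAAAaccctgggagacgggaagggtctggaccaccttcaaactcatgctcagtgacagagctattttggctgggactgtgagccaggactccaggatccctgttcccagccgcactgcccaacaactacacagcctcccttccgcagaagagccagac

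Over the 250 bases before each start site, G and C made up 72.4% of the Pdgfa window, 50.8% of the Pdgfc window and 53.6% of the Pdgfd window, against a median of 52.4% over 32851 mouse windows. The letters of 5 motifs were searched on both strands of these windows. The letters of the GC box and of the EGR motif can overlap. The GC box GGGCGG matched at 2 places in the Pdgfa window, both beyond the printed run, and at 0 in the Pdgfc and Pdgfd windows, and 32.7% of all windows hold it. TATAAA matched at 1 place in the Pdgfd window and at 0 in the others, and 12.4% of all windows hold it. The match lies in the first part of the Pdgfd run, away from the start site at its end. A stretch just after the start site was found in a GENCODE M21 transcript of the gene for Pdgfa and Pdgfc, but not for Pdgfd. The EGR motif GCGNGGGCG, the AP-1 motif TGANTCA and the ETS motif CCGGAAG matched in none of these windows, and 4.70%, 6.75% and 6.91% of all windows hold them in that order. A match of letters is no evidence of binding.

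Both receptor genes were abundant in both libraries. Pdgfra, which encodes the alpha receptor, had 1792 counts in the Ptpn11E76K/+ library and 2073 in the Ptpn11+/+ library, or 103 CPM (98.3 to 108) against 89.6 CPM (85.8 to 93.6). Its ratio was 1.15 (1.08 to 1.23). Pdgfrb, which encodes the beta receptor, had 3721 counts in the Ptpn11E76K/+ library and 6075 in the Ptpn11+/+ library, or 214 CPM (207 to 221) against 263 CPM (256 to 269). It was 1.23-fold lower (1.18 to 1.28). The receptors thus lay on opposite sides of 1, with counting intervals that exclude 1, and neither was called. With totals that omit the 100 most abundant genes the Pdgfra interval included 1 (0.990 to 1.12). Since the cells were gated on CD140 protein, the levels of these genes in both libraries are those of cells selected for a PDGF receptor.

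**Figure D2:**
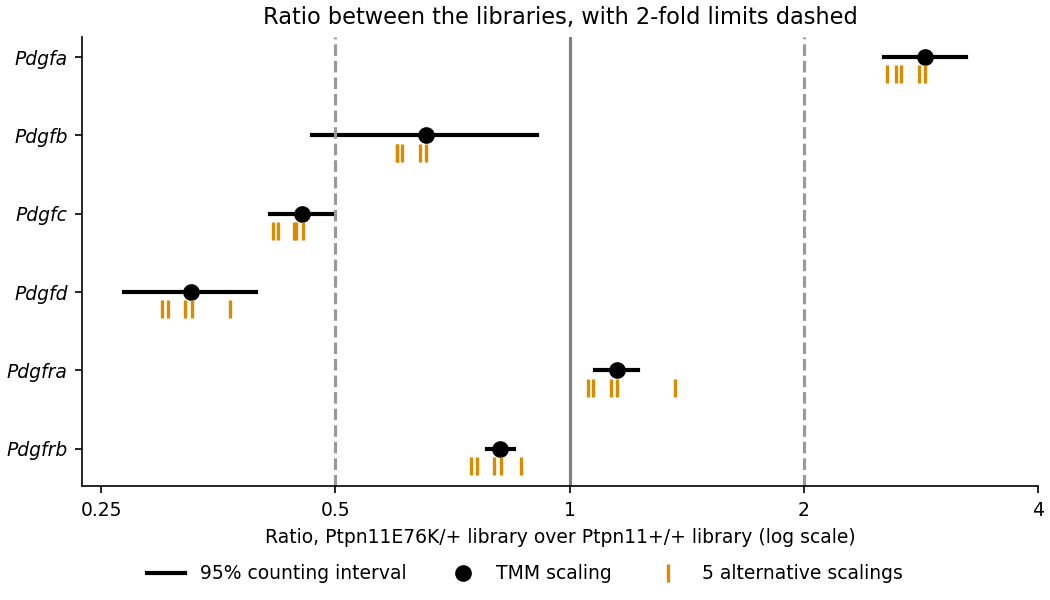
Ratio of the Ptpn11E76K/+ library over the Ptpn11+/+ library for each member on a log axis; dots are TMM-scaled ratios, bars 95% counting intervals, orange ticks the ratio under 5 alternative scalings and dashed lines the 2-fold limits. Pdgfa (2.86) lies beyond 2-fold on the higher side and Pdgfc (0.453) and Pdgfd (0.326) on the lower side, and no alternative scaling moves a member across 1.

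The make-up within a library does not depend on how the library totals are scaled. Counts were divided by the length of the longest GENCODE M21 transcript for this purpose. Pdgfa made up 64.6% of the summed ligand level per length in the Ptpn11E76K/+ library and 21.6% in the Ptpn11+/+ library. Pdgfc made up 26.0% and 55.1%, Pdgfd 6.46% and 19.0%, and Pdgfb 2.94% and 4.31% in the Ptpn11E76K/+ and Ptpn11+/+ libraries. The leading ligand transcript was thus Pdgfa in the Ptpn11E76K/+ library and Pdgfc in the Ptpn11+/+ library. The summed ligand level per length was 37.2 CPM per kilobase in the Ptpn11E76K/+ library and 38.8 in the Ptpn11+/+ library. Its direction depended on the length, since with median transcript length it was 55.5 and 51.7 in the Ptpn11E76K/+ and Ptpn11+/+ libraries. Without length, the ligands summed to 94.4 CPM in the Ptpn11E76K/+ library and 121 CPM in the Ptpn11+/+ library, a ratio of 0.783 (0.736 to 0.832).

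The same make-up can be read from pairs of genes in raw counts. Pdgfa had 1.45 counts for each Pdgfc count in the Ptpn11E76K/+ library and 0.230 in the Ptpn11+/+ library, a 6.32-fold higher ratio (95% exact conditional interval 5.42 to 7.37). Pdgfa over Pdgfd was 8.77-fold higher (6.97 to 11.1) and Pdgfa over Pdgfb 4.38-fold higher (3.08 to 6.28). The other ligands moved less against each other. Pdgfb had 0.427 counts for each Pdgfd count in the Ptpn11E76K/+ library and 0.213 in the Ptpn11+/+ library, a higher ratio with an interval of 1.35 to 2.95. Pdgfb over Pdgfc was 1.44-fold higher (1.01 to 2.03) and Pdgfc over Pdgfd 1.39-fold higher (1.12 to 1.73).

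Among the receptors, Pdgfra had 0.482 counts for each Pdgfrb count in the Ptpn11E76K/+ library and 0.341 in the Ptpn11+/+ library, a 1.41-fold higher ratio (1.31 to 1.52). Per length of the longest transcript, the alpha receptor gene stood at 0.382 of the beta receptor gene in the Ptpn11E76K/+ library and at 0.271 in the Ptpn11+/+ library. Which receptor gene led depended on the length used. With the median transcript length, which for Pdgfra is set by short annotated transcripts, Pdgfra was 1.67 times Pdgfrb in the Ptpn11E76K/+ library and 1.18 times in the Ptpn11+/+ library. The 1.41-fold shift between the libraries comes from raw counts, so no transcript length enters it. It is not corrected for length or GC trends between the libraries. With those trends removed the ratios were 1.37 for Pdgfra and 0.865 for Pdgfrb, farther apart than the 1.15 and 0.815 without the correction.

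**Figure D3:**
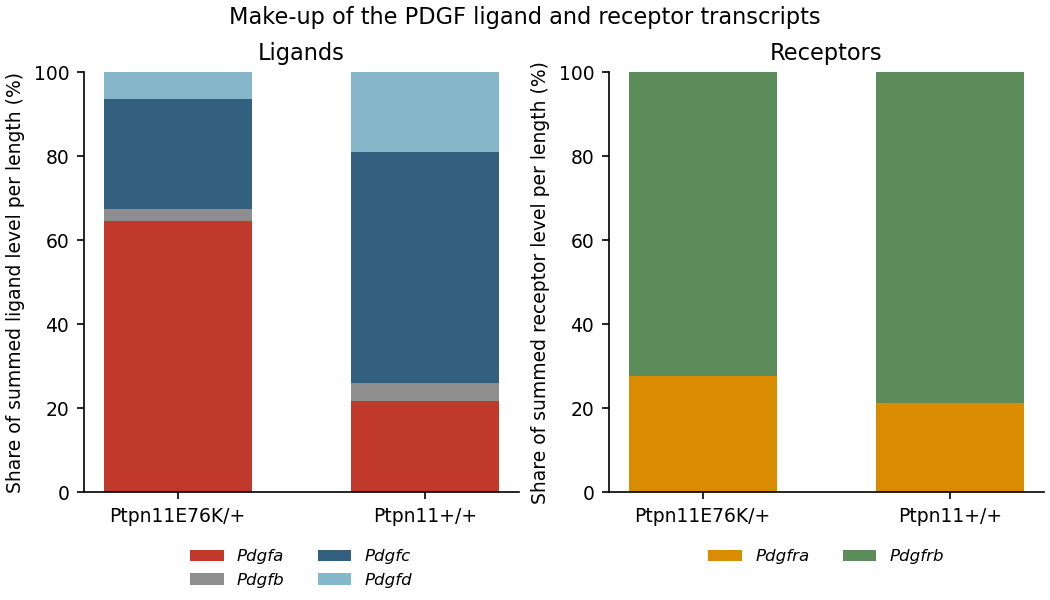
Share of each gene in the summed level per length (percent, longest transcript) of the ligands (left) and of the receptors (right), with the Ptpn11E76K/+ library left of the Ptpn11+/+ library. Pdgfa makes up 64.6% of the ligand level in the Ptpn11E76K/+ library against 21.6% in the Ptpn11+/+ library, whereas the receptor shares differ by less.

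In order of level per kilobase of the longest transcript, the Ptpn11E76K/+ library had Pdgfrb (39.5 CPM per kilobase), Pdgfa (24.0), Pdgfra (15.1), Pdgfc (9.69), Pdgfd (2.41) and Pdgfb (1.09), and no neighbours overlapped within their counting intervals. The Ptpn11+/+ library had Pdgfrb (48.4), Pdgfc (21.4), Pdgfra (13.1), Pdgfa (8.40), Pdgfd (7.37) and Pdgfb (1.67), where only the intervals of Pdgfa and Pdgfd overlapped. Among 54 receptor tyrosine kinase genes, Pdgfrb held rank 6 in the Ptpn11E76K/+ library and rank 5 in the Ptpn11+/+ library, and Pdgfra rank 10 and rank 13. Among 59 growth factor ligand genes, Pdgfa held rank 7 in the Ptpn11E76K/+ library and rank 15 in the Ptpn11+/+ library. Pdgfc held ranks 12 and 7, Pdgfd 20 and 16, and Pdgfb 23 in both.

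**Figure D4:**
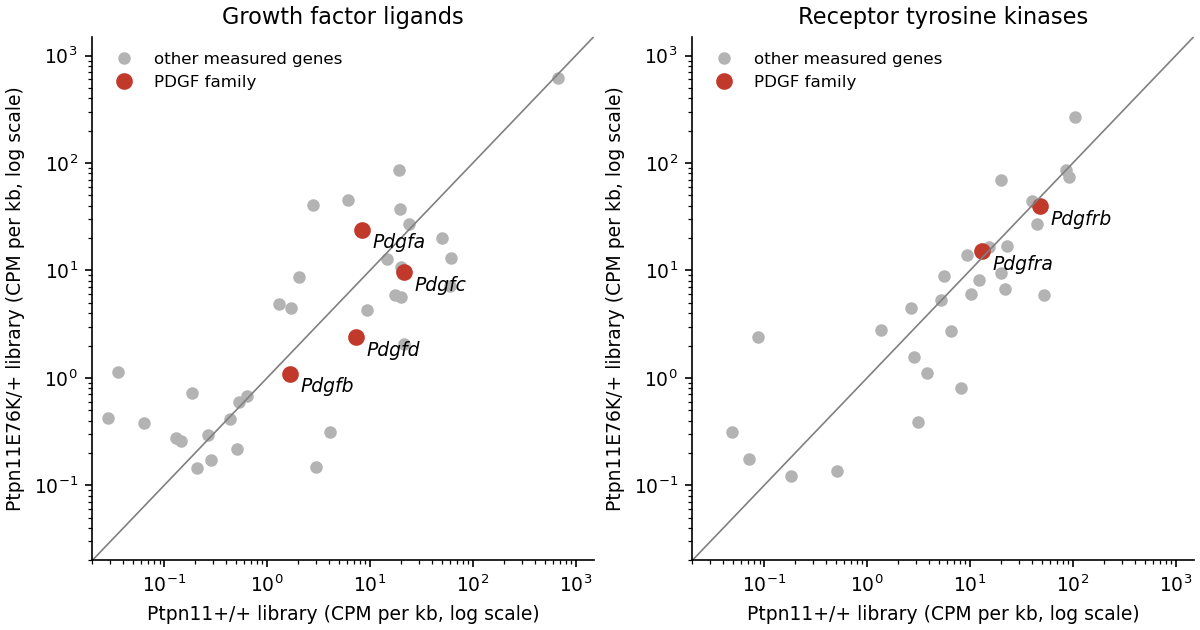
Level per kilobase of the longest transcript (CPM per kb, log axes) of measured growth factor ligand genes (left) and receptor tyrosine kinase genes (right), with the Ptpn11E76K/+ library on the vertical axis, the Ptpn11+/+ library on the horizontal axis and the line of equal levels. Both receptors lie near the line, Pdgfa above it, and Pdgfb, Pdgfc and Pdgfd below it.

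With 2 libraries a pattern is only a pair of levels, and likeness was taken as the smallest distance in log2(CPM + 0.5) over both. The receptor kinase gene nearest to Pdgfrb was Ryk, a WNT receptor gene, at a distance of 0.122 (227 CPM in the Ptpn11E76K/+ library and 280 CPM in the Ptpn11+/+ library), followed by Fgfr1. Nearest to Pdgfra were Erbb2, at 0.385, and Fgfr2. The ligand gene nearest to Pdgfa was Kitl, which encodes stem cell factor, at 0.574. Kitl had 49.6 CPM in the Ptpn11E76K/+ library against 11.5 CPM in the Ptpn11+/+ library, and the next, Vegfb, lay at 1.57. Nearest to Pdgfc were the neuregulin gene Nrg1, at 0.352 (32.0 CPM in the Ptpn11E76K/+ library against 95.5 CPM in the Ptpn11+/+ library), and Fgf7. Nearest to Pdgfd was Il34, at 0.458, with Vegfb farther off at 1.11. Nearest to Pdgfb was Fgf2, at 0.584, with Egf farther off at 1.56.

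The closest kin of the PDGF receptors are the other class III kinases and the VEGF receptors, and those of the ligands are the VEGF genes. Kit, the stem cell factor receptor gene, had 1 count in the Ptpn11E76K/+ library and 0 in the Ptpn11+/+ library, and Flt3 had 1 in each. Csf1r, the receptor gene of macrophage colony-stimulating factor, had 229 and 149 counts and was not called. The VEGF receptor gene Flt1 was called higher, with 290 counts in the Ptpn11E76K/+ library against 14 in the Ptpn11+/+ library (27.6-fold, 16.2 to 51.0). Flt4 was called higher too, with 34 against 7 (6.46-fold, 2.82 to 17.3), while Kdr had 14 against 0 and was not measured. The Flt1, Flt4 and Kdr values rest on few or no counts in the Ptpn11+/+ library. Of the 5 VEGF ligand genes, Vegfc was called higher, with 207 counts in the Ptpn11E76K/+ library and 74 in the Ptpn11+/+ library (ratio 3.72, 2.84 to 4.92). Vegfd was called lower, with 462 and 2888 counts (4.70-fold, 4.26 to 5.20). Vegfa (129 and 67.7 CPM), Vegfb (16.3 and 18.7 CPM) and Pgf (26 and 9 counts) were not called. The called genes are 40% of the 5 measured VEGF ligand genes. They are also 40% of the 5 measured class III and V kinase genes, the PDGF receptors included, beside 15.3% over all measured genes.

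The wider lists showed calls in both directions. Of 38 measured growth factor ligand genes, the 4 PDGF ligands included, 10 were called higher and 11 lower, with a median log2 ratio of -0.09. That median depended on the count minimum and was -0.61 with a minimum of 100 counts and -0.40 with no minimum. The called genes are 55.3% of those measured, beside 15.3% over all measured genes. By the interval bound nearest to no difference, among the farthest higher were the EGF receptor ligand genes Ereg (3264 and 579 counts), Tgfa (33 and 3 counts) and Areg, whose 24 counts stood against 1. By the same bound the farthest lower were Angpt1 (23 and 400 counts), Hgf (9 and 239), Gas6 (315 and 3562) and Fgf18 (39 and 538). Of 31 measured receptor tyrosine kinase genes, 4 were called higher and 8 lower (38.7% called), with a median of -0.30 that was -0.012 with no minimum. Besides Flt1 and Flt4, these were Epha2 (273 and 79.0 CPM) and Axl (1149 and 448 CPM) on the higher side. On the lower side Mst1r had 1 and 68 counts, Ephb6 389 and 4614, Epha1 46 and 620, and Ntrk3 133 and 1440. All these pairs give the Ptpn11E76K/+ library before the Ptpn11+/+ library.

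Of 14 listed genes for proteins that process or present the ligands, 11 were measured, 0 were called higher and 2 lower, with a median log2 ratio of 0.07. The 18.2% called is near the 15.3% over all measured genes. Pcsk5, a proprotein convertase gene, had 5 counts in the Ptpn11E76K/+ library and 194 in the Ptpn11+/+ library and was 29.2-fold lower (12.3 to 90.8). Lrp1, whose receptor protein associates with PDGFR-beta, had 1385 CPM in the Ptpn11E76K/+ library against 2930 CPM in the Ptpn11+/+ library (2.12-fold lower, 2.08 to 2.15). Lrp1 lost its call when ratios were corrected for length and GC content (0.644), and with that correction the co-receptor gene Nrp2 was called higher (2.37, against 2.07 without it). Furin, which cuts the A and B chain precursors, had 217 and 188 CPM in the Ptpn11E76K/+ and Ptpn11+/+ libraries. Plat, whose product tPA activates the C chain, had 1519 counts in the Ptpn11E76K/+ library and 3722 in the Ptpn11+/+ library, a ratio of 0.543 (0.511 to 0.576) that was not called. Plau, whose product uPA activates the D chain, had 1258 and 880 counts, a ratio of 1.90 (1.74 to 2.07) that was not called.

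Of 28 listed genes for signal proteins that dock on the receptors or act next to them, 27 were measured, 1 was called higher and 0 lower (3.70% called, beside 15.3% over all measured genes), with a median log2 ratio of -0.17 that was 0.02 with the length and GC trends removed. Ptpn11 was among those not called, with a ratio of 1.13 (1.08 to 1.17). The gene called was Shb, an adaptor that binds phosphorylated PDGF receptors, with 684 counts in the Ptpn11E76K/+ library and 242 in the Ptpn11+/+ library (ratio 3.76, 3.24 to 4.37). Of 16 listed genes that attenuate the receptors 15 were measured, with 1 called higher, 0 lower (6.67% called, beside the same 15.3%) and a median of 0.16. Lrig1, which encodes a membrane protein that restrains receptor tyrosine kinases, had 897 counts in the Ptpn11E76K/+ library and 253 in the Ptpn11+/+ library (ratio 4.72, 4.10 to 5.44). The ubiquitin ligase gene Cbl had 320 and 891 counts and was not called, but with totals that omit the 100 most abundant genes it was called lower (0.439), as was Pik3r1 (0.456).

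The next list holds genes that PDGF induces in cultured mouse fibroblasts. Of 30 listed genes 29 were measured, of which 10 were called higher, 1 was called lower and 18 were not called, beside 6.98% called higher and 8.29% called lower over all measured genes. Their median log2 ratio was 0.73. These genes are known to respond to serum and to other growth factors as well, so the list is not specific to PDGF. Ptgs2, the COX-2 gene, had 3949 counts in the Ptpn11E76K/+ library and 390 in the Ptpn11+/+ library. Fosl1, an AP-1 subunit gene, had 2982 and 505 counts, the nuclear receptor gene Nr4a1 236 and 42, and Myc 1702 and 462. Thbs1, the thrombospondin gene, was the one called lower, with 89670 and 409223 counts. The classic PDGF-induced genes Egr1 (182 and 156 CPM), Ccl2 (44.5 and 43.3 CPM) and Cxcl1 (7.36 and 6.27 CPM) were not called, and Fos had 208 and 497 counts. Jun was called higher with TMM (2.13) but not with total counts (1.99) or with upper-quartile factors (lower bound 1.97), nor with the most abundant genes omitted (1.96) or the length and GC correction (1.97).

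**Figure D5:**
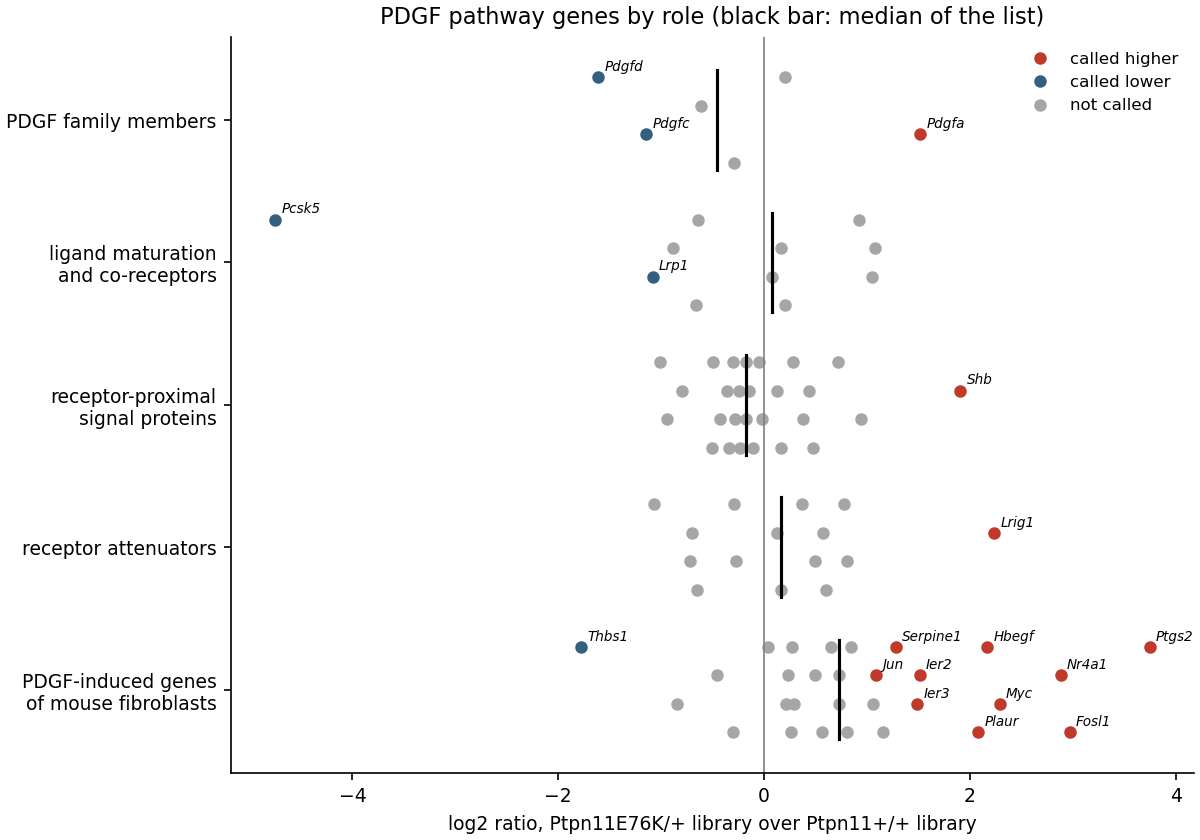
log2 ratio of the Ptpn11E76K/+ library over the Ptpn11+/+ library for each measured gene of 5 lists, with genes called higher in red, called lower in blue and not called in grey; vertical offsets within a list carry no meaning. The receptor-proximal list holds 1 called gene of 27 and the PDGF-induced list 11 of 29.

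Markers of other cells that carry PDGF ligands or receptors were summed in each library. The 12 endothelial markers summed to 2.53 CPM in the Ptpn11E76K/+ library and 1.08 CPM in the Ptpn11+/+ library. Erg, with 15 and 10 counts, was the highest of them, and Tie1, Cldn5, Robo4 and Sox17 were at 0 in both. The 12 megakaryocyte and platelet markers summed to 71.1 CPM in the Ptpn11E76K/+ library and 31.3 CPM in the Ptpn11+/+ library. Ppbp (802 and 168 counts) led in the Ptpn11E76K/+ library, and Gp1bb (104 and 185 counts) led in the Ptpn11+/+ library. Gp6, Gp9 and Treml1 were among those at 0 in both. Ppbp alone held 46.1 CPM in the Ptpn11E76K/+ library and 7.26 CPM in the Ptpn11+/+ library and was called higher. Gp1ba (5 and 57 counts) was called lower, and the other 4 of the 6 measured markers, Gp1bb among them, were not called. The 33.3% called stands beside 15.3% over all measured genes. The 12 monocyte and macrophage markers summed to 57.9 CPM in the Ptpn11E76K/+ library and 14.1 CPM in the Ptpn11+/+ library. Lyz2 (276 and 11 counts) led in the Ptpn11E76K/+ library, and Csf1r (229 and 149 counts) led in the Ptpn11+/+ library. Cd14 (237 and 121 counts) was called higher, while Csf1r and Cd68 (79 and 40 counts) were not called. Ctss (34 and 0 counts), Itgam (30 and 0) and C1qa (24 and 0) passed the count minimum through the Ptpn11E76K/+ library alone. Of 8 measured markers of that list 6 were called higher and 0 lower, with Ctss, Itgam and C1qa among the 6. The 75% called stands beside 15.3% over all measured genes, 6.98% as higher. Fcgr1 was at 0 in both libraries. The part of cells with these markers in the Pdgfa or Pdgfb values was not tested. The 10 glial markers summed to 4.54 CPM in the Ptpn11E76K/+ library and 7.09 CPM in the Ptpn11+/+ library, with Sox10, Olig1 and Olig2 at 0 in both.

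Mural cell markers, which go with Pdgfrb in pericytes and smooth muscle, summed to 2907 CPM in the Ptpn11E76K/+ library and 1466 CPM in the Ptpn11+/+ library. Most of this was Acta2 (1500 and 927 CPM) and Tagln (1258 and 337 CPM), the contractile genes of smooth muscle and myofibroblasts. Of 7 measured mural markers 2 were called higher and 2 lower (57.1% called, beside 15.3% over all measured genes). Tagln and Mcam (197 and 48 counts) were called higher, and Acta2 was not called. The pericyte genes Rgs5 (1 and 34 counts) and Notch3 (13 and 64) were called lower, Cspg4 had 2367 and 4494 counts, and Higd1b was at 0 in both. The part of these differences in the Pdgfrb value was not tested. Of 13 markers of the marrow mesenchymal cells 12 were measured, and they went both ways, with 4 called higher (Kitl, Cd44, Nes and Thy1) and 3 lower (Cxcl12, Prrx1 and Ly6a). The called markers are 58.3% of those measured, beside 15.3% over all measured genes. Lepr was not measured, with 4 counts in the Ptpn11E76K/+ library and 7 in the Ptpn11+/+ library.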

How the data were processed

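The authors deposited raw read counts per Ensembl gene, whole numbers that were not normalized, for 1 library per genotype. Per the submitters' processing notes, CASAVA, TopHat and edgeR were used with the build mm9. Their versions, the counter, the annotation release and any strand setting are not stated there. The series' design text speaks of 2 replicates per array, but the table has 1 column per genotype. Every row named a gene, and both sample columns were used. Symbols were found for 34490 identifiers. Transcript lengths and GC content come from GENCODE M21, on another build, so no coordinates of the counted genes are given. TMM factors (0.965 for Ptpn11E76K/+ and 1.04 for Ptpn11+/+) were computed with edgeR 4.0.16 in R 4.3.3, and intervals with SciPy 1.17.1. A count of 0 allows up to 0.173 CPM in the Ptpn11E76K/+ library and 0.130 CPM in the Ptpn11+/+ library (3 counts). Log2 ratios in list medians use a prior count of 0.5 per library. The interval procedure was tested on libraries simulated with counting error only. That is the error it assumes, so the test says nothing of spread between animals or library preparations. Library totals were also scaled by size factors of DESeq2 1.42.0, by upper-quartile factors, by plain totals and by totals omitting the 100 most abundant genes. A correction for length and GC trends was tried, as were other thresholds, count minimums, priors and lengths. Reads are not independent molecules, so all intervals and floors cover counting error only. The members and the 16 gene lists were chosen with earlier results of these data known. Named genes are the 6 members, up to 4 called genes per direction and list, all VEGF ligands, class III and V kinases and sort genes, the 2 nearest genes per member, and the highest and the absent markers of each cell type. Further genes given with values (Furin, Plat, Plau, Nrp2, Cbl, Pik3r1, Egr1, Ccl2, Cxcl1, Fos, Jun, Cspg4, Gp1bb, Cd14 and Cd68) were chosen after their values were seen. A few genes that this rule names are not reported here.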

Additional observations from a re-analysis of the deposited data

How the results depend on the processing

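No paired analysis was possible because each genotype has 1 library, and for the same reason no library could be left out. All 6 family members kept their direction and their side of the 2-fold rule under the 5 other scalings, with Pdgfa between 2.56 and 2.87 and Pdgfc between 0.416 and 0.454. The receptor ratios moved beyond their counting intervals with total counts (Pdgfra 1.07, Pdgfrb 0.759), without the 100 most abundant genes (1.06 and 0.748) and with the length and GC trends removed (1.37 and 0.865). The median log2 ratio of all measured genes shifted by -0.10 with total counts and by -0.12 without the most abundant genes, and the share of calls that were higher was 45.7% with TMM, 37.5% with total counts and 35.7% without the most abundant genes.

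At 4-fold, 0 members were called higher and 0 lower, with 223 genes higher and 265 lower in all. At 1.5-fold, 2063 genes were called higher and 2046 lower, against 917 and 1090 at 2-fold. With a 99% interval 1 member was called lower. With the length and GC trends removed, the ligand maturation list had 1 gene called higher and 1 lower, and the receptor-proximal list had 2 called higher. Without the most abundant genes, the receptor-proximal list and the attenuator list each had 1 called lower.

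Pdgfra over Pdgfrb was 0.488 in the Ptpn11E76K/+ library and 0.346 in the Ptpn11+/+ library with coding length, and turned round to 1.67 and 1.18 with median transcript length. With median transcript length the ligand shares in the Ptpn11E76K/+ library were 69.3% for Pdgfa, 4.12% for Pdgfb, 21.8% for Pdgfc and 4.74% for Pdgfd. In the Ptpn11+/+ library they were 26.0%, 6.77%, 51.6% and 15.6% in that order, and with coding length Pdgfb was 5.34%, Pdgfc 57.0% and Pdgfd 16.3% there. Depth limits Pdgfb most, whose 170 counts give the widest interval of the 6 members.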
